A study of Mus musculus with 8 samples.

Results

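The genes described here are 32 genes of fatty acid oxidation and of the response to the nuclear receptor PPARα, out of 25239 genes in a count table of mouse liver RNA. They were taken by symbol from a fixed list that covers the carnitine shuttle, mitochondrial and peroxisomal β-oxidation, ω-oxidation, acyl-CoA thioesterases and well-known PPARα targets. All 32 were in the table and all 32 passed the filter on low counts. The livers were those of male adults, and each of the 2 groups has 4 libraries. Control mice were Zfp36l1 fl/fl, with both copies of Zfp36l1 flanked by loxP sites, and are labelled WT for genotype (their titles spell the gene Zf36l1). Knockout mice were Zfp36l1 fl/fl Alb-Cre+, carrying the same alleles plus a Cre recombinase driven by the albumin promoter, which is active mainly in hepatocytes, so other liver cells keep the gene. No alcohol, fasting or drug treatment is named for these libraries, and the labels do not give the time of day or the feeding state. The labels number the libraries 1 to 4 in each group and do not state that separate animals gave them. The p-values therefore reflect how much these libraries vary, which may be technical.

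Fatty acids enter mitochondria as carnitine esters and are shortened there by β-oxidation, while very long chains are first shortened in peroxisomes. In the liver a large part of the resulting acetyl-CoA becomes ketone bodies during fasting. PPARα is the receptor that senses fatty acids in hepatocytes. It binds DNA as a pair with the retinoid X receptor and switches on genes of uptake, oxidation and ω-hydroxylation, of which the Cyp4a genes are among the most responsive. ZFP36L1, the product of the deleted gene, uses zinc fingers to bind AU-rich stretches near the 3′ end of mRNAs and speeds their decay.

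Levels are CPM, read counts scaled to a common library size, here with TMM factors that align libraries on their typical gene, and are given for libraries 1 to 4 in that order. Differences are log2 fold changes of knockout over control with a standard error (SE) and were tested by the quasi-likelihood method of edgeR. Each adjusted p follows Benjamini and Hochberg over 14861 genes, with a threshold of 0.05. Same-numbered libraries of the 2 groups deviated together from their group means. The same test was therefore also fitted with the replicate number as a block, which compares knockout and control within each number. The labels state no such pairs, and the p-values with the block do not allow for a pairing chosen from these same data. Total counts ranged from 104842873 to 140582588 per library. The targeted gene Zfp36l1 had 263, 237, 324 and 212 CPM in control and 76.9, 57.9, 67.2 and 58.3 CPM in knockout libraries, a log2 difference of -1.99 (SE 0.14, adjusted p = 0.000309). Hepatocyte markers (Alb, Apoa1, Ttr, Tat, Cps1 and Hnf4a) together gave between 69302 and 75122 CPM in controls and between 81354 and 91699 CPM in knockouts. Most of that sum is Alb (54749 to 62345 and 68173 to 75945 CPM), and without Alb the groups overlapped, at 12776 to 16063 and 13052 to 15754 CPM. The 6 markers had a median log2 fold change of -0.01, and 3 of them were above 0. Of 28 tested markers of hepatocytes and other cell types, 0 rose and 0 fell. The summed Kupffer cell markers (6 of 6 tested, none at 0) were 158, 113, 155 and 156 CPM in control and 197, 90.7, 119 and 252 CPM in knockout libraries, so knockout library 4 was the highest of the 8, and the part of this in the results below was not tested. In RNA from whole tissue, fewer cells of a type and less RNA per cell cannot be told apart.

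Of the 32 genes, 2 passed the test, against 5.39% of all tested genes in either direction. Cpt1a and Crat rose in the knockout and 0 fell, against 3.51% of all tested genes that rose and 1.88% that fell. At an unadjusted p under 0.05, 8 of the 32 differed in either direction, against 21.5% of all genes. Of these 8 were higher and 0 lower, and no share of all genes by direction was taken at this threshold. With the replicate number as a block Cpt1a, Crat and Vnn1 rose and Cyp4a10 fell, against 4.39% and 2.52% of all genes. The log2 fold change was above 0 for 26 of the 32 under TMM scaling, against 48.4% of all genes. When libraries were scaled by their totals alone it was above 0 for 16 of 32, against 32.4% of all genes. That scaling moved the median of all genes by -0.113. The median over the 32 was 0.14 under TMM, beside -0.01 for all genes, and 0.02 under totals alone, beside -0.12. Without knockout library 4 the median was 0.30 and 6 rose (2.98% of all genes rose there). With both libraries numbered 4 left out it was 0.19 and 4 rose (2.32% of all genes). Without knockout library 2 the median was 0.02, with 18 of the 32 above 0 (47.9% of all genes). Without control library 4 it was 0.07, with 21 of the 32 above 0 (49.2% of all genes). Of the 32, Cpt1a alone had groups that did not overlap, against 15.1% of all genes. For 12 of the 32 genes, knockout libraries 1 to 3 were all above all controls (10.4% of all genes), and in all of these but Cpt1a library 4 was below the other knockout libraries (11 genes, against 6.21% of all genes) and not above all controls.

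How many passed depended on the libraries and the tool. Leaving out control library 1, 2 or 4 gave 0 genes that rose (1.55%, 2.02% and 3.03% of all genes), and so did leaving out knockout library 1, 2 or 3 (1.35%, 2.02% and 1.13%), while Cpt1a and Vnn1 rose without control library 3 (3.9%). With DESeq2 4 rose, Acaa1b and Vnn1 in addition (6.82% of all genes), and with library totals alone 0 did (2.64%). With limma-voom and with a stricter count filter Cpt1a, Crat and Vnn1 rose (5.59% and 4.45% of all genes). With the block, Vnn1 alone rose without both libraries numbered 1, 2 or 3 (1.33%, 1.82% and 2.34% of all genes), and Cyp4a10 fell without those numbered 2 (0.447%).

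**Figure D1:**
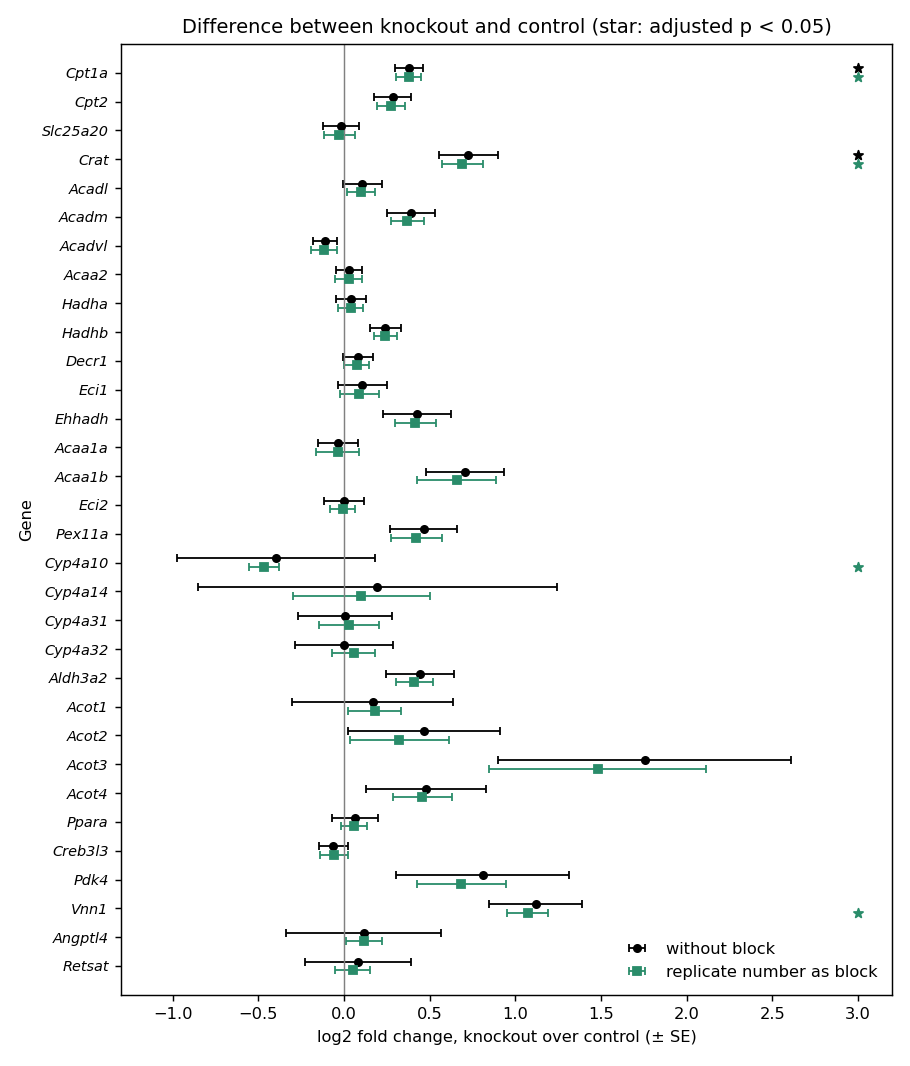
Log2 fold change of knockout over control for the 32 genes, with bars of 1 SE, from the fit without (black circles) and with (green squares) the replicate number as a block, n = 4 libraries per group. Stars at the right mark adjusted p under 0.05, for Cpt1a and Crat in both fits and for Vnn1 and Cyp4a10 in the fit with the block alone.

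Sites of the kind that ZFP36L1 is known to bind were looked for in the 3′ untranslated regions (UTRs). The letters TATTTAT, in the longest annotated 3′ UTR of each gene in GENCODE M21 (GRCm38, the assembly of mm10), were found in 5 of 31 of the 32 genes with such a region (16.1%), against 29.8% of 13707 tested genes and 49% of 506 genes that rose in the knockout. The median UTR length was 797 bases for the 31 and 1155 for the tested genes, and the shares are not matched for length. The 5 genes were Cpt1a, Cpt2, Acot4, Pdk4 and Vnn1, each with 1 match. They include Cpt1a, which rose, and Vnn1, which rose in the fit with the block, while Crat has no match in a UTR of 2107 bases. The Acot4 site lies 1789 bases after the stop codon in a UTR of 4805 bases. The deposited length of Acot4 is 2325 bases, so the annotation used for counting did not hold all of that UTR. The 5 sites are shown with the 7 letters of the motif in capitals and 9 bases on either side, read 5′ to 3′ along the mRNA in DNA letters.
Cpt1a, plus strand, chr19:3385106-3385130: taaatcatgTATTTATtttccagtg
Cpt2, minus strand, chr4:107904007-107904031: actcagctgTATTTATtgtttaaat
Acot4, plus strand, chr12:84045576-84045600: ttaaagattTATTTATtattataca
Pdk4, minus strand, chr6:5483489-5483513: cttccctatTATTTATgaacccatg
Vnn1, plus strand, chr10:23904996-23905020: gctattaagTATTTATctcaacatt
A match says nothing of whether the protein binds there in these livers.

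The carnitine shuttle held both genes that passed without the block. Cpt1a, the outer membrane carnitine palmitoyltransferase that controls entry of long-chain fatty acids into mitochondria (chromosome 19, 3322334 to 3385733, plus strand), had 398, 398, 457 and 398 CPM in control and 492, 564, 573 and 515 CPM in knockout libraries. All 4 knockout libraries lay above all 4 controls, with means of 413 ± 29.6 and 536 ± 38.7 CPM (SD, n = 4) in control and knockout. Cpt1a rose by 0.38 (SE 0.08, adjusted p = 0.0292) on the log2 scale, and by 0.38 (SE 0.07, adjusted p = 0.0231) with the block. Crat, a carnitine acetyltransferase that acts on short-chain acyl groups (chromosome 2, 30400471 to 30415813, minus strand), had 88.6, 78.9, 87.8 and 73.3 CPM in control and 141, 159, 155 and 87.2 CPM in knockout libraries. Knockout libraries 1 to 3 stood clear of the controls, while library 4 lay within the control range. Its log2 fold change came to 0.72 (SE 0.17, adjusted p = 0.0454), and 0.69 (SE 0.12, adjusted p = 0.0188) with the block.

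Both calls were close to the threshold. For Cpt1a the adjusted p was 0.0776, 0.0706 and 0.0571 without control libraries 1, 2 and 4 and 0.0543, 0.076 and 0.0935 without knockout libraries 1, 2 and 3, and the call held without the other two libraries. For Crat it was 0.0904, 0.105, 0.0649 and 0.0838 without control libraries 1 to 4 and 0.113, 0.111 and 0.12 without knockout libraries 1 to 3, and was 0.00312 without knockout library 4. Without both libraries numbered 4 and with no block it was 0.0776 for Cpt1a and 0.00628 for Crat. Under library totals alone it was 0.0799 and 0.0534. With the block, leaving out both libraries numbered 1, 2 or 3 gave 0.0945, 0.0939 and 0.0562 for Cpt1a and 0.0801, 0.0527 and 0.0723 for Crat. Exons of Crat overlap those of Dolpp1 on the opposite strand. As no strand setting is stated, reads from the stretch where they overlap cannot be assigned to either gene.

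The other genes of the shuttle did not pass. Cpt2, the inner membrane partner of Cpt1a, had 197, 211, 193 and 184 CPM in control and 241, 271, 255 and 188 CPM in knockout libraries. Knockout libraries 1 to 3 were above every control and library 4 was not, and the log2 fold change came to 0.28 (SE 0.11, adjusted p = 0.168). The adjusted p was 0.0304 once knockout library 4 was left out. Without both libraries numbered 4 and with no block it was 0.0582, which missed the threshold. Slc25a20, the carrier that exchanges acylcarnitine for carnitine across the inner membrane, had 103, 97.6, 90.4 and 95.4 CPM in control and 95.2, 112, 96.6 and 77.6 CPM in knockout libraries. These groups overlapped, with knockout library 4 below every control and a log2 fold change of -0.02 (SE 0.10, adjusted p = 0.938).

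**Figure D2:**
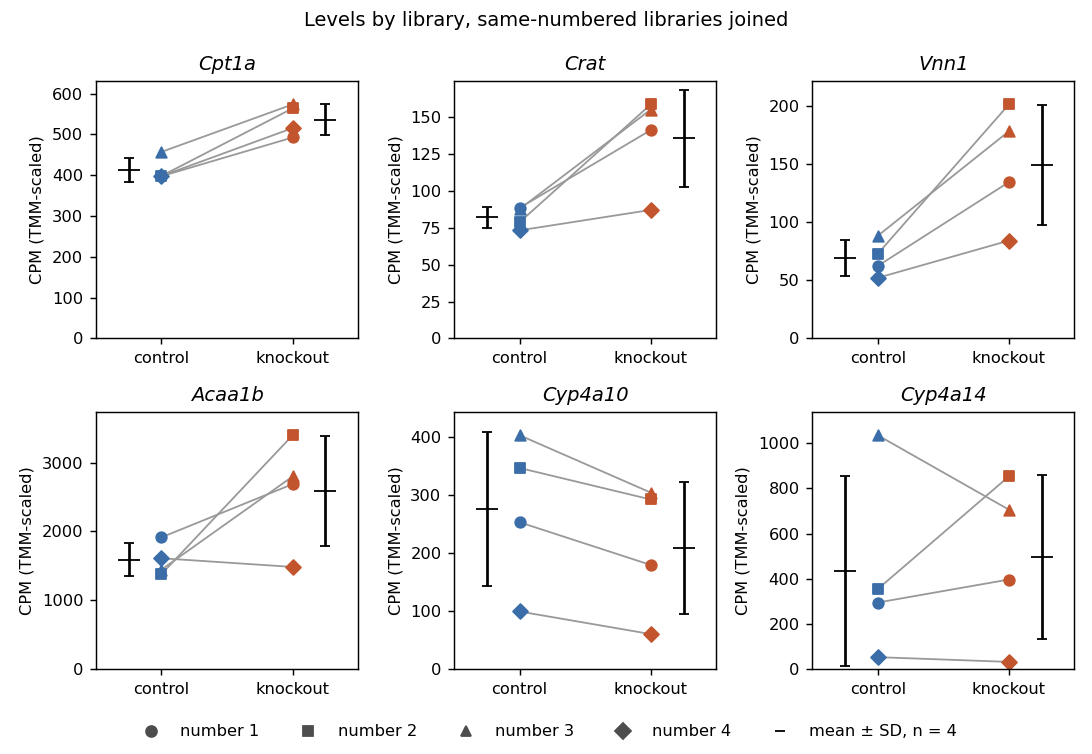
CPM of Cpt1a, Crat, Vnn1, Acaa1b, Cyp4a10 and Cyp4a14 in control (blue) and knockout (orange) libraries, with lines joining libraries of the same number and black bars for mean ± SD (n = 4). Cpt1a, Crat and Vnn1 were higher in the knockout library of every number, Cyp4a10 was lower in every number, and Acaa1b and Cyp4a14 were higher in some numbers and lower in others.

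None of the 8 enzymes of mitochondrial β-oxidation passed in either fit. Their log2 fold changes ran from -0.11 to 0.39 with a median of 0.09. The highest of the 8 was that of Acadm, the medium-chain acyl-CoA dehydrogenase, with 355, 362, 352 and 307 CPM in control and 406, 578, 472 and 349 CPM in knockout libraries. Knockout library 4 lay within the control range and the other three above it, and the log2 fold change came to 0.39 (SE 0.14, adjusted p = 0.144), or 0.37 (SE 0.10, adjusted p = 0.0589) with the block. Hadha, which encodes the α subunit of the trifunctional protein, had 412, 409, 448 and 374 CPM in control and 442, 457, 428 and 365 CPM in knockout libraries. The groups overlapped, and the log2 fold change came to 0.04 (SE 0.09, adjusted p = 0.828). Hadhb, the β subunit of the same protein, had 164 to 202 CPM in control and 189.6 to 239.7 CPM in knockout libraries and a log2 fold change of 0.24 (SE 0.09, adjusted p = 0.159), higher in the knockout library of all 4 numbers.

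The dehydrogenases of long and very long chains and the auxiliary enzymes stayed within overlapping ranges. Acadl, the long-chain dehydrogenase, had 157 to 191 CPM in control and 154 to 222 CPM in knockout libraries, and Acadvl, the very-long-chain enzyme, had 506 to 532 and 433 to 509.5 CPM. Acadvl was 1 of the 6 genes with a log2 fold change below 0 (log2 fold change -0.11, SE 0.07, adjusted p = 0.393). The final thiolase Acaa2 had 777 to 829.7 CPM in control and 726 to 886 CPM in knockout libraries. Decr1 and Eci1, which handle double bonds, had log2 fold changes of 0.08 and 0.11 (adjusted p = 0.635 and 0.711). The log2 fold changes of Acadl, Acaa2, Hadha, Decr1 and Eci1 went below 0 under library totals alone. Knockout library 4 had the lowest level among the knockout libraries for all 8 enzymes. Acadvl has an exon overlap with Dvl2 on the opposite strand, and Hadha with Garem2.

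None of the 5 peroxisomal genes passed with or without the block, with a median log2 fold change of 0.43. Acaa1b, a peroxisomal thiolase, had 1915, 1381, 1446 and 1611 CPM in control and 2687, 3396, 2798 and 1485 CPM in knockout libraries. Knockout libraries 1 to 3 were above every control, and library 4 lay within the control range. The log2 fold change came to 0.71 (SE 0.23, adjusted p = 0.11), or 0.66 (SE 0.23, adjusted p = 0.154) with the block, and the adjusted p was 0.0112 without knockout library 4 and 0.0246 without both libraries numbered 4. Ehhadh, the peroxisomal bifunctional enzyme, had 671, 567, 773 and 477 CPM in control and 956, 1001, 816 and 568 CPM in knockout libraries. It was higher in the knockout library of all 4 numbers, with ratios of 1.42, 1.77, 1.06 and 1.19, and had a log2 fold change of 0.43 (SE 0.20, adjusted p = 0.252). Pex11a, a peroxisome proliferation factor, had 129, 145, 115 and 123 CPM in control and 187, 226, 187 and 108 CPM in knockout libraries. Library 4 of the knockout was the lowest of all 8, with a log2 fold change of 0.47 (SE 0.20, adjusted p = 0.21). Without that library the adjusted p was 0.0148.

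Acaa1a and Eci2 had log2 fold changes close to 0. Acaa1a, the close copy of Acaa1b, had 136 to 179 CPM in control and 133 to 182 CPM in knockout libraries (log2 fold change -0.03, SE 0.12, adjusted p = 0.891), and Eci2, an enoyl-CoA isomerase, had 145 to 178 and 135 to 195 CPM, a log2 fold change of 0.00 (SE 0.12, adjusted p = 0.997). Over their coding sequences Acaa1a and Acaa1b are 96.5% identical, and 38.1% of the 50-base windows of Acaa1a occur unchanged in Acaa1b, so the counting may have split reads between them. Their summed level was 2083, 1536, 1582 and 1789.7 CPM in control and 2831, 3579, 2962 and 1618 CPM in knockout libraries. The sum was higher in the knockout for numbers 1 to 3 and lower for number 4, as for Acaa1b alone. Acaa1a made up 5.1% to 10.1% of the sum in each library, so the sum mostly repeats the values of Acaa1b. Exons of Acaa1a overlap Myd88 and those of Acaa1b overlap Dlec1, both on the opposite strand.

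**Figure D3:**
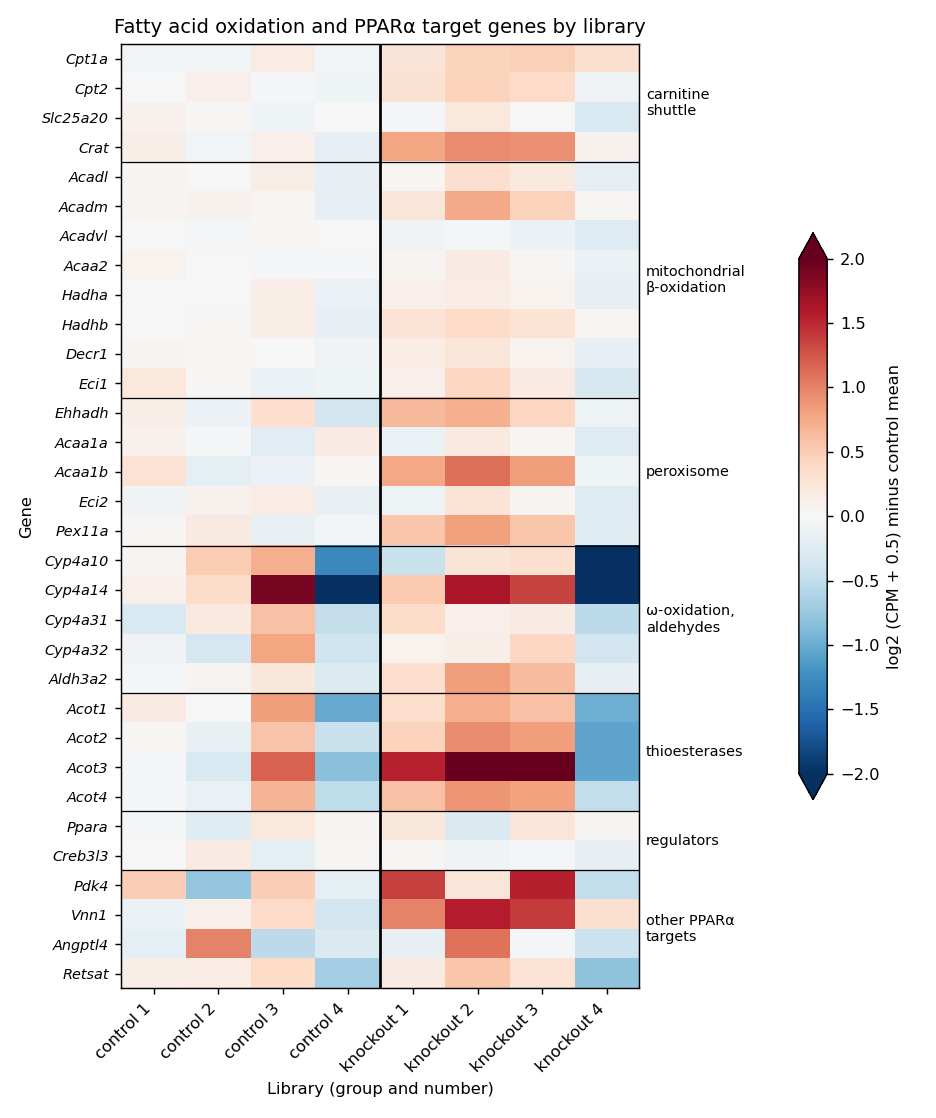
Each cell is the log2 of CPM + 0.5 in 1 library minus the control mean of that gene, for 32 genes in 7 functional groups and 8 libraries, with red above and blue below the control mean and colours capped at 2 and -2. Control library 4 and knockout library 4 are the bluest columns, led by Cyp4a10, Cyp4a14 and the thioesterases, while Cpt1a and Vnn1 are red in all 4 knockout libraries.

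The Cyp4a genes encode the cytochrome P450 enzymes of fatty acid ω-hydroxylation and varied more between libraries than between groups. Cyp4a10 (chromosome 4, 115518264 to 115533649, plus strand) had 253, 347, 404 and 99.6 CPM in control and 179.9, 293, 305 and 60.6 CPM in knockout libraries. The knockout library was lower in every number, with knockout-to-control ratios of 0.71, 0.844, 0.755 and 0.609, against 17.7% of all genes that were lower in all 4. Without the block the spread between numbers was larger than the difference, -0.40 (SE 0.58, adjusted p = 0.737), and with the block Cyp4a10 fell by 0.47 on the log2 scale (SE 0.09, adjusted p = 0.0225). That call was lost without the libraries numbered 1 (0.0986) or 3 (0.0542), and held without those numbered 2 (0.0353) or 4 (0.0474).

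Cyp4a14 (chromosome 4, 115486200 to 115496142, minus strand) had the highest ratio of its highest to its lowest library of the 32 genes. Its level was 295, 355, 1035 and 53.4 CPM in control and 397, 854, 706 and 32.4 CPM in knockout libraries. The knockout library was higher in numbers 1 and 2 and lower in numbers 3 and 4, with ratios of 1.35, 2.41, 0.682 and 0.607. The log2 fold change came to 0.19 (SE 1.05, adjusted p = 0.933), or 0.10 (SE 0.40, adjusted p = 0.900) with the block, and its sign turned without control library 4, knockout library 2 or knockout library 3.

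Cyp4a31 and Cyp4a32 lie beside Cyp4a10 on chromosome 4 and gave no direction. Cyp4a31 had 5.67 to 12.4 CPM in control and 5.49 to 10.6 CPM in knockout libraries, and Cyp4a32 had 26.9 to 61.9 and 27.1 to 47.6 CPM. Their coding sequences are 96.6% and 97.2% identical to that of Cyp4a10, and 19.5% and 34.8% of the 50-base windows of Cyp4a10 recur in them, so their reads may have been split. The sum of the 3 genes was 294, 385, 478 and 132 CPM in control and 228, 340.0, 362 and 93.2 CPM in knockout libraries, lower in the knockout for all 4 numbers. Cyp4a10 itself made up 65.0% to 90.3% of that sum in each library, so the sum mostly repeats its values. Cyp4a14 is 75.9% identical to Cyp4a10 and shares no 50-base window with it. Aldh3a2, which oxidises the fatty aldehydes that follow from such hydroxylation, had 388 to 545 CPM in control and 416 to 833 CPM in knockout libraries, with a log2 fold change of 0.45 (SE 0.20, adjusted p = 0.235) and a higher knockout level in all 4 numbers.

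The acyl-CoA thioesterases Acot1 to Acot4 release free fatty acids from their CoA esters, Acot1 in the cytosol, Acot2 in mitochondria and Acot3 and Acot4 in peroxisomes. Their genes sit together on chromosome 12 between 83987861 and 84060402. Acot1 lies 3.9 megabases from Zfp36l1 (80107754 to 80113013), whose loxP-flanked alleles both groups carry. None of the 4 passed, and the log2 fold changes were 0.17 to 1.75. Acot1 had 25.3, 22.3, 40.5 and 10.9 CPM in control and 28.7, 37.5, 33.8 and 11.2 CPM in knockout libraries, with library 4 of each group far below the others and a log2 fold change of 0.17 (SE 0.47, adjusted p = 0.869). Acot3 had 2.66, 2.13, 6.89 and 1.31 CPM in control and 8.93, 19.5, 14.5 and 1.07 CPM in knockout libraries. Its knockout-to-control ratios were 3.36, 9.16, 2.1 and 0.811, so that the numbers did not share a direction, and its log2 fold change came to 1.75 (SE 0.85, adjusted p = 0.288). Acot2 had 3.57 to 7.75 CPM in control and 2.18 to 10.2 CPM in knockout libraries, and Acot4 had 15.4 to 35.9 and 15.7 to 41.3 CPM. Coding sequences of Acot1 and Acot2 are 85.6% identical, with 43.5% of the 50-base windows of Acot1 recurring in Acot2, which leaves the split of reads between them uncertain.

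Acot4, Creb3l3 and Slc25a20 have, near an annotated start, letters that resemble the direct repeat known to be bound by PPARα with its partner. Promoters of 24 of the 32 genes were matched by symbol in RefSeq (GRCm38.p6, 250 bases before to 50 after the annotated start) and searched on both strands for 2 copies of AGGTCA with any 1 base between them. An exact match was found in 0 of the 24 and in 0.06% of 11675 tested genes. When up to 2 of the 12 fixed letters could differ, a limit set after the exact search had found none, 3 of the 24 held a match (12.5%), against 3.83% of the tested genes. Such a match is a likeness of letters in this window and says nothing of whether PPARα binds there. The matches are shown with the 13 letters of the element in capitals and 8 bases on either side, read 5′ to 3′ along the strand of the gene. The repeat of Acot4 lies on the opposite strand, so its capitals are the reverse complement of the repeat.
Acot4, plus strand, chr12:84038358-84038386, first letter of the element 13 bases before the start: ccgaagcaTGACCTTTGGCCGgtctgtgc
Creb3l3, minus strand, chr10:81092780-81092808, first letter 209 bases before one of its 2 annotated starts: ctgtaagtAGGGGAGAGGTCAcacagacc
Slc25a20, plus strand, chr9:108662134-108662162, just after the start: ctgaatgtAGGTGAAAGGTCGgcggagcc
None of these 3 genes passed the test in either fit. Crat, Vnn1 and Cyp4a10, which did pass in a fit, had no matched promoter and were not searched.

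Neither of the regulators passed, and their ranges overlapped. Ppara, which encodes PPARα, had 338, 289, 395 and 355 CPM in control and 401, 279.7, 406 and 355 CPM in knockout libraries. The groups overlapped and library 4 stood in the middle of each, unlike in most of the targets, and the log2 fold change came to 0.07 (SE 0.13, adjusted p = 0.816), which went to -0.05 under library totals alone. Creb3l3, a liver transcription factor of the endoplasmic reticulum membrane that acts with PPARα, had 287, 325, 257 and 293 CPM in control and 294, 277, 283 and 259 CPM in knockout libraries. Its log2 fold change came to -0.06 (SE 0.08, adjusted p = 0.706). Neither gene passed under any alternative setting.

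The remaining targets included the gene with the lowest adjusted p in the fit with the block. Vnn1, a pantetheinase (chromosome 10, 23894688 to 23905343, plus strand), had 62.3, 72.8, 88.2 and 52.1 CPM in control and 134, 201, 178 and 84.1 CPM in knockout libraries. Knockout libraries 1 to 3 were above every control, library 4 lay between control libraries 2 and 3, and within numbers the ratios were 2.16, 2.77, 2.02 and 1.61. The log2 fold change came to 1.12 (SE 0.27, adjusted p = 0.0536) without the block, which missed the threshold, and 1.07 (SE 0.12, adjusted p = 0.00443) with it. The call with the block held when both libraries of any 1 number were left out, with adjusted p from 0.00167 to 0.0292. Without the block Vnn1 passed without control library 3 (0.0473), knockout library 4 (0.0136) or both libraries numbered 4 (0.0201), and it also passed with DESeq2 (0.000208), limma-voom (0.0195) and the stricter count filter (0.042). It did not pass under library totals alone (0.0528), without the count filter (0.0825) or without any other single library (0.0987 to 0.134).

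Pdk4, Angptl4 and Retsat gave wide ranges in both groups. Pdk4, a kinase that holds back pyruvate oxidation, had 45.8, 18.7, 45.5 and 28.1 CPM in control and 84.2, 38.3, 96.2 and 22.9 CPM in knockout libraries. Its ratios within numbers were 1.84, 2.05, 2.12 and 0.815, higher in numbers 1 to 3 and lower in number 4, and the log2 fold change came to 0.81 (SE 0.51, adjusted p = 0.405). Angptl4, a secreted inhibitor of lipoprotein lipase, had 49.9, 113, 39.2 and 46.4 CPM in control and 50.7, 121, 55.4 and 41.7 CPM in knockout libraries. Library 2 was the highest in both groups, and the log2 fold change came to 0.11 (SE 0.45, adjusted p = 0.908). Retsat, retinol saturase, had 306 to 649 CPM in control and 279.9 to 721 CPM in knockout libraries, with the lowest value of each group in library 4 and a log2 fold change of 0.08 (SE 0.31, adjusted p = 0.903).

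The libraries numbered 4 had the lowest levels of most of these genes in both groups. Knockout library 4 was the lowest of the 4 knockout libraries for 30 of the 32 genes, the exceptions being Cpt1a and Ppara, against 32.4% of all genes. Control library 4 was the lowest control for 20 of the 32, against 24% of all genes. In 20 of the 32 library 4 was the lowest in both groups (9.54% of all genes). Knockout library 2 was the highest of the 4 knockout libraries for 25 of the 32, against 33.9% of all genes. The median deviation from the control mean, on the scale of log2 (CPM + 0.5), was 0.02, 0.01, 0.14 and -0.16 for the controls in order of number. For the knockouts it was 0.25, 0.43, 0.35 and -0.25. Over all tested genes these medians were between -0.02 and 0.00.

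The size of that gap differed between genes. For Cyp4a14, control library 4 had 0.095 times the mean of control libraries 1 to 3, and knockout library 4 had 0.0497 times the mean of knockout libraries 1 to 3. The values were 0.297 and 0.234 for Cyp4a10 and 0.37 and 0.335 for Acot1. For Acaa1b and Pex11a they were 1.02 and 0.502 and 0.946 and 0.54, so only knockout library 4 was low for these genes. For Ppara they were 1.04 and 0.979. Within number 4, the knockout library was above the control for Vnn1 (ratio 1.61), Cpt1a (1.3) and Crat (1.19), and below it for Cyp4a10 (0.609), Cyp4a14 (0.607) and Acot2 (0.61). The labels do not say what the number 4 stands for, and the cause of the low levels was not tested.

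**Figure D4:**
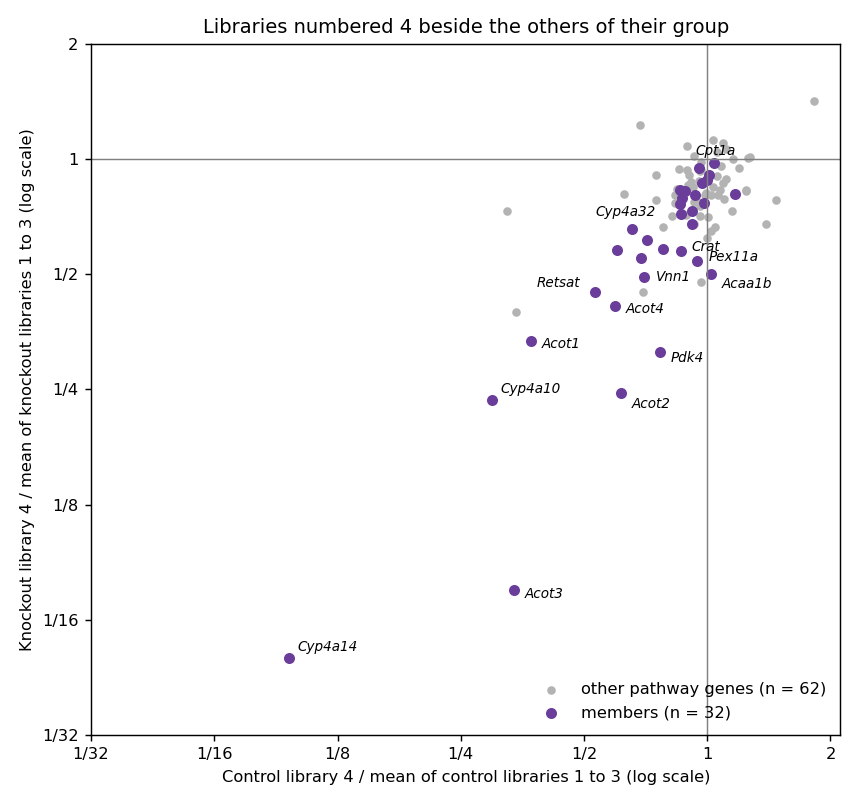
Level in library 4 divided by the mean of libraries 1 to 3, for control (horizontal) and knockout (vertical) libraries, both on log scales, for the 32 genes (purple) and 62 other genes of the pathway (grey). Cyp4a14 lies farthest to the lower left, at 0.095 and 0.0497, while Acaa1b sits near 1 for the control and at 0.502 for the knockout.

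In each number the comparison of knockout with control gave a partly different set. The knockout library was higher in all 4 numbers for 9 of the 32 genes (15.8% of all genes), namely Cpt1a, Cpt2, Crat, Acadm, Hadhb, Ehhadh, Aldh3a2, Acot4 and Vnn1. It was lower in all 4 for Cyp4a10 alone. Another 7 genes were higher in numbers 1 to 3 and lower in number 4 (5.92% of all genes), namely Decr1, Acaa1b, Pex11a, Acot2, Acot3, Pdk4 and Angptl4. With the block and without both libraries numbered 4, 8 of the 32 rose (Acaa1b, Aldh3a2, Cpt1a, Cpt2, Crat, Pdk4, Pex11a and Vnn1) and Cyp4a10 fell, against 3.96% and 1.65% of all genes.

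Levels were compared between genes per length, as CPM per kilobase of the deposited gene length. In control livers Acaa1b was the most abundant of the 32, at 951 ± 143, followed by Acaa2 at 529.6 ± 16.3. Retsat (259 ± 73.6), Acadvl (236 ± 5.02) and Ehhadh (207 ± 42.6) came next and did not differ beyond their spread. Cyp4a14 had 174 ± 169 and Cyp4a10 132 ± 63.7, with SDs that span many neighbours in this order. Hadha (151 ± 11.1) was above Hadhb (89.2 ± 7.43), and Cpt1a (95.9 ± 6.89) was close to Cpt2 (83.5 ± 4.76). Ppara had 45.7 ± 5.84, Vnn1 28.5 ± 6.39 and Crat 18.7 ± 1.67 CPM per kilobase. The lowest levels were those of Acot2 (2.38 ± 0.815) and Acot3 (0.945 ± 0.725). In knockout livers Acaa1b (1553 ± 479.8) and Acaa2 (540.5 ± 44) again led.

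Further genes of the pathway were read from a list chosen with earlier results of these data known, so its shares are no test of the pathway. The list held 63 genes, of which 62 were tested. Of these 6 rose and 0 fell, against 3.51% and 1.88% of all genes. With the block the counts were the same, against 4.39% and 2.52% of all genes. Their log2 fold changes had a median of 0.11 (0.00 under library totals alone). Fgf21, a liver hormone of fasting and a PPARα target, had 1.48, 1.77, 5.62 and 2.85 CPM in control and 18.6, 12.8, 23.1 and 8.69 CPM in knockout libraries (log2 fold change 2.43, SE 0.49, adjusted p = 0.0335). Every knockout library was above every control. The uncoupling protein gene Ucp2 had means of 23.7 ± 3.21 and 44.3 ± 6.07 CPM (log2 fold change 0.90, SE 0.12, adjusted p = 0.00643). The monoacylglycerol lipase gene Mgll had 225 ± 24.3 and 389.9 ± 73.9 CPM (log2 fold change 0.79, SE 0.14, adjusted p = 0.0172). Pex19, which brings proteins to the peroxisome membrane, had 125 ± 10.9 and 172 ± 10.9 CPM (log2 fold change 0.46, SE 0.08, adjusted p = 0.0166). The acyl-CoA synthetase gene Acsl5 rose by 0.41 on the log2 scale (adjusted p = 0.0399) and Phyh, a peroxisomal enzyme of α-oxidation, by 0.31 (adjusted p = 0.0427, or 0.0574 with the block). Plin2, a lipid droplet protein gene chosen after its values were seen, passed with the block alone (adjusted p = 0.0443, and 0.0581 without it).

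Of these 6 genes only Ucp2 passed whichever single library was left out. Pex19 and Mgll missed the threshold without knockout library 1 (0.0504 and 0.0503) or 3 (0.0595 and 0.0576). Fgf21 missed it without control library 1, 2 or 4 (0.0658, 0.0782 and 0.0722) or knockout library 1, 2 or 3 (0.0888, 0.0734 and 0.0778). Phyh missed it without the same 6 libraries, with adjusted p from 0.0721 to 0.133. Acsl5 passed only without control library 3 and otherwise had 0.0553 to 0.118. Acsl5 and Phyh also did not pass under library totals alone (0.0707 and 0.128), and Fgf21 did not pass without the count filter (0.0584).

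Of the 5 ketogenesis genes on the list, 0 rose and 0 fell. Fabp1, the liver fatty acid binding protein gene, had 1499.7 to 2184 CPM in control and 2047 to 2612 CPM in knockout libraries (log2 fold change 0.41, SE 0.12, adjusted p = 0.0926). Of the partners of PPARα, the receptor gene Rxra had a log2 fold change of -0.17 (SE 0.11, adjusted p = 0.396) and the coactivator gene Ppargc1a 0.25 (SE 0.18, adjusted p = 0.462).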

How the data were processed

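RNA from livers of male mice, in 4 control and 4 knockout libraries, was analysed from whole-number read counts per gene that the authors deposited in a single table of 25239 genes with a gene length for each. The genome build was mm10, per the submitters' processing notes. The aligner, the counting tool, the annotation and the strand setting were not given in the sources used here. Each of the 8 count columns carries a library name that the labels give to 1 sample.

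Genes were kept by edgeR's filterByExpr, which left 14861 genes and 99.9917% of the counts. Groups were compared with edgeR 4.0.16 (R 4.3.3) by the quasi-likelihood test with TMM scaling and Benjamini-Hochberg adjustment over all genes tested, at 0.05, with 6 residual degrees of freedom. The biological coefficient of variation was 0.204. On simulated counts for 14764 genes of the knockout and control comparison, the test recovered 85% of 2-fold and 100% of 4-fold changes. The simulation gave every gene the same dispersion and same-numbered libraries no shared deviation. These shares therefore do not carry over to genes that varied more, such as Cyp4a14 and Acot3. Alternatives were DESeq2 1.42.0, limma-voom with quality weights (limma 3.58.1), library totals alone, no count filter, a filter of 100 counts in 4 libraries, each library left out, and the replicate number as a block. Leaving out both libraries of a number was added after the data were seen.

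The labels give both groups the numbers 1 to 4 without saying what a number marks. Same-numbered libraries had correlated deviations from their group means (0.174, 0.438, 0.317 and 0.444 for numbers 1 to 4), and each library matched its own number best, so the numbers were taken as pairs. This choice rests on the data that were then tested, and the p-values with the block do not allow for it.

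The members and gene lists were chosen with earlier results of these data known, and no p-value is adjusted over a list alone. Values by library are given for genes past the threshold and for a set of named members, and the other members are given by ranges. Sequences were read from RefSeq promoters (GRCm38.p6) and GENCODE transcripts (GRCm38), where 24 and 32 of the 32 genes were matched. Some genes of the wider pathway list are not reported here by name.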

Additional observations from a re-analysis of the deposited data

Results flagged for a closer look

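In 3 of 88 groups of 4 libraries examined (44 genes), 1 library stood far from the other 3 relative to the range of its group, and chance gives about 1 in 20 such groups. Cpt1a had 457 CPM in control library 3, against 398 in each of the other control libraries. That library lies nearest to the knockout libraries, and the adjusted p of Cpt1a was 0.017 without it. Angptl4 had 113 CPM in control library 2, with the next control at 49.9. Mgll had 189 CPM in control library 3, below the other controls at 233 to 240.1, and rose in the knockout without that library too (adjusted p = 0.0299).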

How the results depend on the processing

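The library with the fewest counts held 104842873, and the precision of each comparison rests on 4 libraries in each group. The lower level of Zfp36l1 passed in all settings, with log2 fold changes from -2.08 to -1.86 on leaving out each library. Of the 32 genes, 2 rose in the reported fit, 4 with DESeq2 (Cpt1a, Crat, Vnn1 and Acaa1b), 0 with library totals alone, and 0 to 6 without each single library, with 0 that fell. With the replicate block 3 rose and 1 fell. The block changed the calls of Cyp4a10, Vnn1, Phyh and Plin2 and no other call among the genes named here. With numbers 1 to 3 alone 4 rose. With the block and without the libraries numbered 1, 2, 3 or 4, 1, 1, 1 and 8 rose, and 1 fell without those numbered 2 or 4. Of the other pathway genes, 6 rose, 10 with DESeq2 and 1 to 8 without each single library, and 0 fell, with 2 under DESeq2, 4 under library totals alone, 1 under the stricter filter and 2 under limma-voom. Over all genes 521 rose and 280 fell, against 1014 and 724 with DESeq2, 830 and 604 with limma-voom, 1338 that fell under library totals alone, 345 and 98 with numbers 1 to 3, and 169 to 583 and 42 to 384 without each single library. Signs turned only for log2 fold changes that did not pass. Under library totals alone these were -0.0077 for Acadl, -0.084 for Acaa2, -0.074 for Hadha, -0.033 for Decr1, -0.0058 for Eci1, -0.11 for Eci2, -0.12 for Cyp4a31, -0.047 for Ppara, -0.0039 for Angptl4 and -0.037 for Retsat, and this scaling moved the median of all genes by -0.113. With the block Eci2 had -0.0082. Cyp4a32 had 0.0054 with DESeq2, 0.0046 with the stricter filter, 0.26 with limma-voom and 0.056 with the block. With numbers 1 to 3 Slc25a20 had 0.064 and Acaa1a 0.094. On leaving out each library the log2 fold changes ranged from -0.10 to 0.071 for Slc25a20, -0.016 to 0.080 for Acaa2, -0.010 to 0.23 for Eci1, -0.12 to 0.037 for Acaa1a, -0.10 to 0.079 for Eci2, -0.20 to 1.08 for Cyp4a14, -0.15 to 0.25 for Cyp4a31, -0.14 to 0.35 for Cyp4a32, -0.080 to 0.51 for Acot1, -0.0052 to 0.17 for Ppara, -0.33 to 0.57 for Angptl4 and -0.099 to 0.30 for Retsat. The cause of these turns was not tested.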
